A study of Homo sapiens with 2 samples.

Results

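The YAP-TEAD genes described here are 10 human genes taken by name from the count tables: YAP1, WWTR1, TEAD1, TEAD4, LATS2, AJUBA, AMOTL2, CYR61, CTGF and ANKRD1. All 10 were found among the 58735 genes listed, under the older names CYR61 and CTGF for CCN1 and CCN2. They were measured by RNA sequencing in BHT101, an established human cell line from an anaplastic thyroid carcinoma. One group was made of cells that overexpressed SETDB2, a histone H3 lysine 9 methyltransferase of the SET domain family, and the other of the control cells of that overexpression experiment. Each group held 1 library. Both were grown in DMEM with sodium pyruvate and 20% serum at 37 °C and 5% CO2. The labels do not give the vector, what the control cells carried, the time after its introduction or the number of clones.

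The Hippo pathway is a kinase cascade in which the kinases STK3 and STK4, with SAV1, activate LATS1 and LATS2. The LATS kinases phosphorylate the co-activators YAP (YAP1) and TAZ (WWTR1), which are then held in the cytoplasm or degraded. Unphosphorylated YAP and TAZ enter the nucleus, bind DNA through the TEAD transcription factors and switch on genes for growth, adhesion and matrix. The pathway reads cell density, tension of the actin skeleton and serum lipids, and much of its control lies in the phosphorylation and location of proteins, which RNA counts do not measure. Several of its restraining genes, among them LATS2 and AMOTL2, are themselves switched on by YAP and TAZ.

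None of the 10 genes differed by 2-fold or by 1.5-fold between the SETDB2 and control libraries. The largest difference was in ANKRD1, which was 34.1% higher in the SETDB2 library, followed by TEAD1 at 20.6% and CTGF at 17.1%. The other 7 differed by 6.6% or less in either direction, CYR61 and YAP1 among them. This order and this bound hold before removal of a trend with GC content, described below. With that trend removed the log2 ratio was 0.36 for ANKRD1, 0.25 for CTGF, 0.19 for TEAD1, -0.11 for YAP1 and 0.10 for TEAD4. With 1 library per group there is no test and no p-value, and each 95% interval below covers counting error only. In RNA from a whole culture, more RNA per cell and more cells with the transcript cannot be told apart.

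DNA upstream of annotated starts of the genes is shown first, because TEAD proteins recognise the motif GGAATG, which reads CATTCC on the other strand. RefSeq promoter sequences on GRCh38.p14 matched 7 of the 10 genes, with 10 annotated starts between them; CYR61, TEAD1 and TEAD4 had no entry. The motif was sought on both strands in the 250 bases before each start. It was present before 5 of the 10 starts, which belonged to CTGF, ANKRD1, YAP1, AMOTL2 and AJUBA. Of all 35116 RefSeq windows of that length, 11.9% held at least 1 match, 0.928% at least 2 and 0.0797% at least 3. CTGF had 3 matches, ANKRD1 2, and YAP1, AMOTL2 and AJUBA 1 each. No match was found in the windows of WWTR1 and LATS2. AMOTL2 and AJUBA each had 2 starts, and the match stood only before the one farther inside the gene. A match is a description of letters and was not tested as a binding site. The CTGF upstream sequence is at chr6:131951374-131951622, minus strand, and is written 5′ to 3′ with the motif in capitals.

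CTGF: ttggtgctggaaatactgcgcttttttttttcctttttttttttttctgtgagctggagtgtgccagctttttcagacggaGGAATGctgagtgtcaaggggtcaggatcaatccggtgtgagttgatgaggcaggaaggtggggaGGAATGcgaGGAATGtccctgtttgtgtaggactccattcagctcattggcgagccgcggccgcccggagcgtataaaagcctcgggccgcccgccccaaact

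The matches before starts of the other 4 genes are given with their flanks. The surroundings of the motif can thus be compared with those in CTGF. Capitals again mark the motif, which AMOTL2 carries in the complementary orientation. The 2 ANKRD1 matches begin 220 and 128 bases before the start. Those of YAP1, AMOTL2 and AJUBA begin 162, 69 and 59 bases before a start, the inner of 2 starts in AMOTL2 and AJUBA. They lie at chr10:90921290-90921319 and chr10:90921198-90921227 (minus strand), chr11:102110273-102110302 (plus strand), chr3:134374499-134374528 (minus strand) and chr14:22976884-22976913 (minus strand). The second ANKRD1 site and those of YAP1, AMOTL2 and AJUBA fall inside exons that GENCODE 29 annotates for some transcript, that of YAP1 in the neighbouring gene AP001527.2.
ANKRD1, 220 bases upstream: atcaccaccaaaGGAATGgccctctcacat
ANKRD1, 128 bases upstream: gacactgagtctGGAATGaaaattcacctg
YAP1: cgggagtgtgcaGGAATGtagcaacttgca
AMOTL2: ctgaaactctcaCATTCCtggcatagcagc
AJUBA: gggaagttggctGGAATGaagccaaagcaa

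The SETDB2 library held 34053348 counts over 26027 genes and the control library 33572025 counts over 26299 genes. SETDB2 itself had 1370 counts in the SETDB2 library and 507 in the control library, which is 2.69-fold higher (log2 ratio 1.43, 1.28 to 1.58) and in the direction of the labels. Genes with a mean of at least 1 CPM (counts set to a common library size by TMM, a scaling on the bulk of genes) were kept, 14130 in all, and all 10 YAP-TEAD genes were among them. Of 5 epithelial markers 4 were at 1 FPKM or more (counts per gene length and library depth) in both libraries. CDH1 was not, at 0.47 FPKM in the SETDB2 library and 0.58 FPKM in the control. None of 7 thyroid markers reached 1 FPKM in either, and NKX2-1 had 0 counts in both, so the labelled thyroid origin was not visible in them. Endothelial and leukocyte markers were below 1 FPKM throughout. Of 7 fibroblast markers 3 were at 1 FPKM or more in each library and the list summed to 26.7 FPKM in the SETDB2 library and 19.1 FPKM in the control, of which LUM gave 20.9 and 15.4 FPKM and COL1A1 3.39 and 1.61 FPKM. COL3A1 had 0 counts and 1 count, and DCN 8 and 14 counts.

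Among the 10 genes the spread of levels was wide, and per unit length the secreted target genes stood at the top. CYR61, a matricellular protein that binds integrins, had 173.2 FPKM in the SETDB2 library and 169.5 FPKM in the control, above 98.8% and 98.9% of the protein-coding genes kept. CTGF followed at 48.9 and 41.5 FPKM, and AJUBA at 38.2 and 38.3 FPKM. The co-activators and TEAD factors lay between 14.2 and 20.2 FPKM in the 2 libraries. LATS2 was lowest, at 4.61 FPKM in the SETDB2 library and 4.83 FPKM in the control, above 42.2% and 43.3% of protein-coding genes. Counting intervals of neighbours in this order overlapped only for WWTR1 and YAP1 in the SETDB2 library. ANKRD1 stood above AMOTL2 in the SETDB2 library and below it in the control, and TEAD1 and TEAD4 likewise changed places, as did WWTR1 and YAP1. These orders use FPKM without removal of the GC trend described below.

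**Figure D1:**
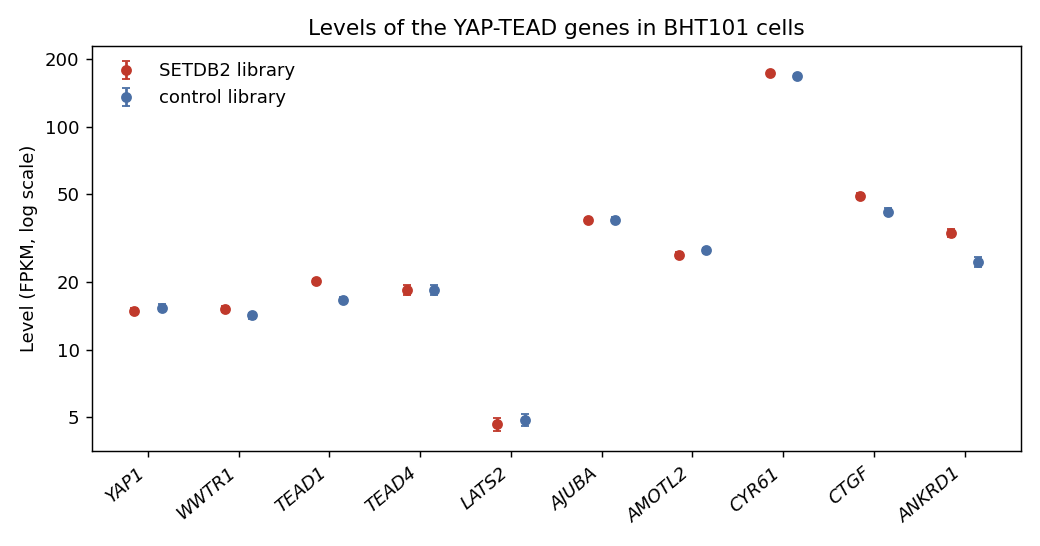
Level of each YAP-TEAD gene in FPKM (log scale) in the SETDB2 library (red) and the control library (blue), 1 library each; bars are 95% counting intervals. CYR61 is highest at 173.2 and 169.5 FPKM and LATS2 lowest at 4.61 and 4.83 FPKM, and the points of a gene part visibly for ANKRD1, TEAD1 and CTGF.

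The co-activators differed little. YAP1 (ENSG00000137693, chr11:102110461-102233423, plus strand) had 3167 counts in the SETDB2 library and 3279 in the control library. Its log2 ratio, SETDB2 over control, was -0.06 (-0.13 to 0.01), a difference of -3.9% with bounds of -8.5% and 1.0%. WWTR1, which encodes TAZ (ENSG00000018408, chr3:149517235-149736714, minus strand), had 4334 counts in the SETDB2 library and 4046 in the control, or a log2 ratio of 0.09 (0.03 to 0.16) or 6.6% higher. The antisense gene WWTR1-AS1 lies within its span and had 13 and 18 counts, too few to move the value. Summed counts of both co-activators were 7501 and 7325, or a log2 ratio of 0.03 (-0.02 to 0.07). Per length they were near equal, YAP1 making up 49.4% of their summed FPKM in the SETDB2 library and 52.0% in the control.

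TEAD1 was higher in the SETDB2 library, and TEAD4 was within counting error of equality. TEAD1, a DNA-binding partner of YAP and TAZ (ENSG00000187079, chr11:12674591-12944483, plus strand), had 7034 counts in the SETDB2 library and 5807 in the control. Its log2 ratio was 0.27 (0.22 to 0.32). Among genes kept with at least 500 summed counts, 17.4% lay farther from 0. TEAD4, its paralog (ENSG00000197905, chr12:2959330-3040673, plus strand), had 1426 and 1423 counts, or a log2 ratio of -0.003 (-0.11 to 0.10).

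The remaining paralogs were scarce. TEAD2 had 1.55 FPKM in the SETDB2 library and 2.05 FPKM in the control, from 156 and 207 counts. TEAD3 had 2.89 and 3.34 FPKM, from 297 and 344 counts. Summed over the 4 paralogs, the TEAD level was 43.2 FPKM in the SETDB2 library and 40.6 FPKM in the control, of which TEAD1 gave 46.8% and 41.1%, and TEAD4 42.9% and 45.6%. As a share of TEAD counts, which long transcripts weigh more, TEAD1 had 78.9% in the SETDB2 library (exact binomial 95% interval 78.1 to 79.8) and 74.6% in the control (73.6 to 75.6). In both libraries TEAD1 and TEAD4 thus made up most TEAD transcript. Per length TEAD1 came first in the SETDB2 library and TEAD4 in the control. That order is not corrected for the GC trend described below. With the trend removed the log2 ratios of TEAD1 and TEAD4 were 0.19 and 0.10, so the change of places rests on uncorrected FPKM.

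**Figure D2:**
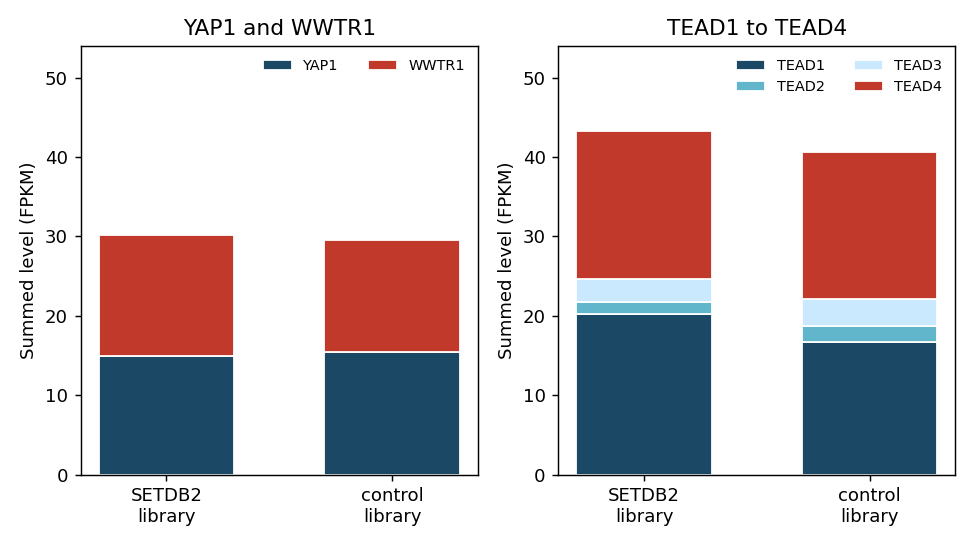
Summed FPKM of YAP1 and WWTR1 (left panel) and of TEAD1 to TEAD4 (right panel), in the SETDB2 library and the control library, 1 library each. The co-activator columns are of like height and near evenly divided, while the TEAD column is 43.2 FPKM in the SETDB2 library against 40.6 FPKM in the control, with a taller TEAD1 segment.

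The regulators that are part of the feedback onto YAP and TAZ were near equality. LATS2, the kinase that phosphorylates YAP and TAZ (ENSG00000150457, chr13:20973032-21061547, minus strand), had 870 counts in the SETDB2 library and 911 in the control. Its log2 ratio was -0.07 (-0.21 to 0.06), a difference of -4.9% with bounds of -13.5% and 4.4%. AMOTL2, an angiomotin family protein that holds YAP at cell junctions (ENSG00000114019, chr3:134355874-134375479, minus strand), had 5367 and 5644 counts, or a log2 ratio of -0.08 (-0.13 to -0.02) and a difference of -5.3%. AJUBA, a LIM domain protein that restrains LATS kinases (ENSG00000129474, chr14:22971174-22982642, minus strand), had 7712 and 7738 counts, or a log2 ratio of -0.01 (-0.06 to 0.03). AMOTL2 was the only gene of the 10 whose interval lay below 0 before the GC trend described below was removed.

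The secreted and nuclear target genes did not move by the same amount. ANKRD1, an ankyrin repeat protein that YAP induces and that muscle cells carry in the sarcomere (ENSG00000148677, chr10:90912096-90921276, minus strand), had 2229 counts in the SETDB2 library and 1655 in the control. Its log2 ratio was 0.42 (0.33 to 0.52), and 5.1% of genes with at least 500 counts lay farther from 0. CTGF, a matricellular growth factor (ENSG00000118523, chr6:131948176-131951373, minus strand), had 3865 and 3287 counts, or a log2 ratio of 0.23 (0.16 to 0.30). Of genes with at least 500 counts, 24.4% lay farther from 0 than CTGF. CYR61 (ENSG00000142871, chr1:85580761-85583962, plus strand), the most abundant of the 3, had 14370 and 14072 counts, or a log2 ratio of 0.02 (-0.01 to 0.06). The counting interval of CYR61 overlapped neither that of CTGF nor that of ANKRD1.

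Read against all genes, these differences were ordinary in size. No YAP-TEAD gene passed the 2-fold rule (at least 2-fold, with an interval that leaves out equality), and over all genes kept 0.651% were higher and 1.15% lower by it. At 1.5-fold the background was 2.54% higher and 4.43% lower, again with none of the 10. The counting interval lay above 0 for 4 of the 10 genes (ANKRD1, TEAD1, CTGF and WWTR1) and below 0 for 1 (AMOTL2), and over all genes kept this was so for 26.5% and 24.6%. Among the 10237 genes kept with at least 500 counts, 3191 intervals lay above 0 and 2683 below. Such intervals are narrow at these counts and leave out any variation between cultures. The median log2 ratio of the 10 was 0.01 (-0.004 when scaled by total counts), and that of all genes kept 0.003. The middle 95% of genes with at least 500 counts ran from -0.46 to 0.39, a range that held 9 of the 10 genes and left ANKRD1 just above it.

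**Figure D3:**
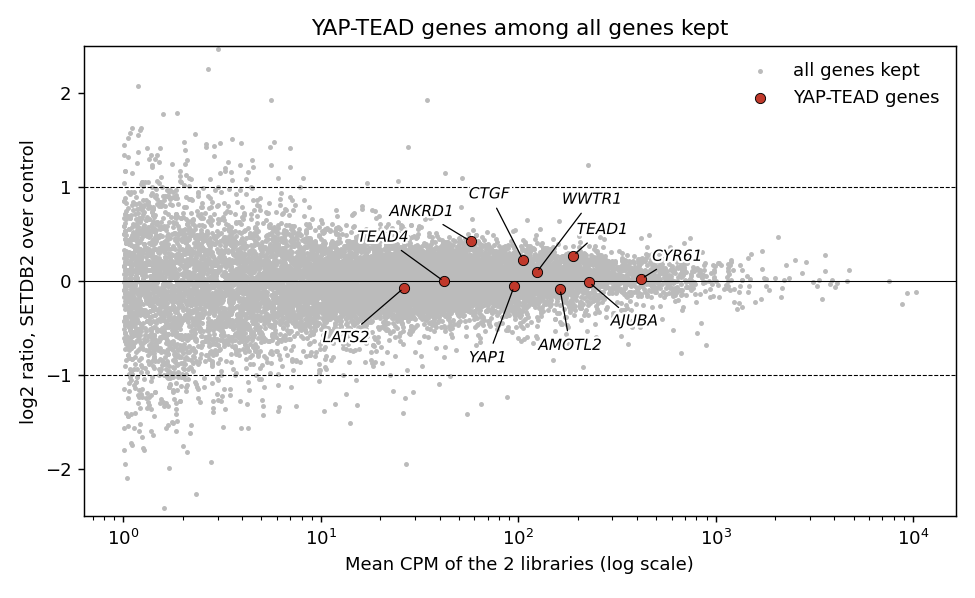
Log2 ratio (SETDB2 over control, 1 library each) against mean CPM (log scale) for all 14130 genes kept (grey) and the YAP-TEAD genes (red); dashed lines mark 2-fold and 5 genes lie outside the plotted range. All 10 red points sit well inside the dashed lines, and ANKRD1 is the highest of them at 0.42.

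Across genes the ratio between the 2 libraries moved with GC content. Over genes with at least 500 counts, the Spearman correlation of the log2 ratio with the GC content of the longest transcript was -0.41, a description across genes that share 2 libraries. WWTR1 and TEAD1 have transcripts of low GC content, 40.9% and 41.3%, and TEAD4 and AMOTL2 of high, 60.4% and 56.7%. With the trend subtracted, WWTR1 was at 0.005 (-0.06 to 0.07) and AMOTL2 at -0.01 (-0.06 to 0.04), so neither interval left out equality any longer. TEAD1 was at 0.19 (0.14 to 0.24), CTGF at 0.25 (0.18 to 0.31) and ANKRD1 at 0.36 (0.27 to 0.46). YAP1 was then at -0.11 (-0.18 to -0.04), an interval below 0, and TEAD4 at 0.10 (-0.01 to 0.21). Whether the trend belongs to the cells or to the libraries cannot be told apart.

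**Figure D4:**
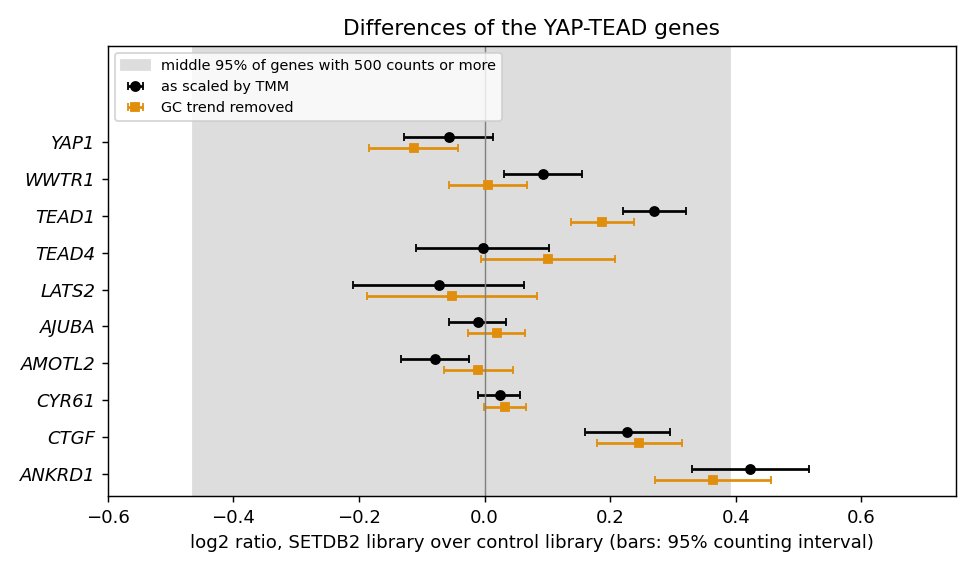
Log2 ratio (SETDB2 over control, 1 library each) for each YAP-TEAD gene, with its 95% counting interval, after TMM scaling (black circles) and with the GC trend also removed (orange squares); the grey band holds the middle 95% of genes with at least 500 counts. ANKRD1, CTGF and TEAD1 lie above 0 on both scales, whereas WWTR1 and AMOTL2 reach equality once the trend is removed.

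The wider pathway was examined through lists of other genes. The Hippo kinase core and its upstream regulators lay within 1.5-fold. Of 17 genes, all kept, 12 lay above 0 and 5 below, with a median log2 ratio of 0.12, while 7144 of all 14130 genes kept lay above 0. Before removal of the GC trend the counting interval lay above 0 for 9 and below for 1. Over all genes kept this was so for 26.5% and 24.6%. Among the 10237 genes kept with at least 500 counts, 3191 lay above and 2683 below. MOB1A, the co-activator of the LATS kinases, had 6718 counts in the SETDB2 library and 6150 in the control, or a log2 ratio of 0.12 (0.07 to 0.17). With the GC trend removed MOB1A was at 0.005. MAP4K4, a kinase that can activate LATS, had 8499 and 8623 counts, or a log2 ratio of -0.03 (-0.07 to 0.02). The largest value of the list was that of FRMD6, a FERM domain protein upstream of the cascade, with 1985 and 1457 counts and the log2 ratio at 0.44 (0.34 to 0.54); it was singled out after its value was seen. With the GC trend removed the list's median was 0.04 and 10 of its 17 genes lay above 0. Of the 9 intervals above 0, those of SAV1, NF2 and FRMD6 stayed there. Those of STK3, MOB1A, LATS1, WWC2, TAOK1 and TAOK3 then took in equality, the trend being larger than their lower bounds. At MAP4K4 the trend of 0.024 passed the upper bound of 0.016, so its interval lay below 0, as did that of WWC1. Genes added here were picked after their values were seen.

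Proteins that bind or restrain YAP and TAZ had a median log2 ratio of 0.04, with 8 of the 13 genes kept above 0, 5 below and none past 1.5-fold. The 14-3-3 proteins, which hold phosphorylated YAP and TAZ in the cytoplasm, were the most abundant. YWHAQ had 20553 counts in the SETDB2 library and 17255 in the control, or a log2 ratio of 0.25 (0.22 to 0.28), and YWHAZ 43491 and 37155 counts, or a log2 ratio of 0.22 (0.20 to 0.24). AMOT, the founding angiomotin, was left out by the filter at 1 and 10 counts, so that the angiomotins of BHT101 were AMOTL2 at 26.5 and 27.9 FPKM and AMOTL1 at 6.54 and 6.32 FPKM.

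The VGLL proteins bind TEAD factors in place of YAP and TAZ. VGLL3 had 1258 counts in the SETDB2 library and 854 in the control, or a log2 ratio of 0.55 (0.43 to 0.68). VGLL4, counted above among the restraining proteins, was the more abundant per length at 3.86 FPKM in the SETDB2 library and 4.26 FPKM in the control, against 2.93 and 1.99 FPKM for VGLL3. It lay on the other side of 0, with 945 and 1044 counts and the log2 ratio at -0.15 (-0.28 to -0.02). VGLL4 was at -0.13 with the GC trend removed. The trend of -0.024 passed its upper bound of -0.022, so the interval then took in equality. Of the sequence pieces of VGLL4, 58.3% were found in no other gene, against 100% for VGLL3. Whether the shared pieces affect the level or ratio of VGLL4 was not tested. VGLL4 and TEAD2 are named for their family. VGLL1 and VGLL2 had 0 counts in both libraries, which allows up to 0.0885 CPM in the SETDB2 library and 0.0889 CPM in the control. Of the 3 genes kept in the list of TEAD paralogs and VGLL cofactors, VGLL3 lay above 0 and TEAD2 and TEAD3 below, TEAD2 at -0.41 (-0.72 to -0.11) and TEAD3 at -0.22 (-0.45 to 0.01). The median of these 3 genes was -0.22, and -0.12 with the GC trend removed.

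The other genes of a published pan-cancer YAP/TAZ target signature divided evenly. Of 17 genes, all kept, 9 lay above 0 and 8 below, and the median log2 ratio was 0.01. CCDC80, a secreted matrix protein, passed 1.5-fold with 114 counts in the SETDB2 library and 57 in the control, or a log2 ratio of 0.99 (0.522 to 1.478), and no gene of the list was 1.5-fold lower. The level of CCDC80 was low, at 0.26 FPKM in the SETDB2 library and 0.13 FPKM in the control. That was above 2.8% and 0.6% of the protein-coding genes kept. Over all genes kept, 2.54% were 1.5-fold higher and 4.43% lower. The abundant genes of the signature ran from slightly below 0 to above it. NT5E, an enzyme of the cell surface that makes adenosine and the gene of highest FPKM in the list, had 16454 counts in the SETDB2 library and 15075 in the control, with the log2 ratio at 0.12 (0.09 to 0.15). AXL, a receptor tyrosine kinase, had 12013 and 12020 counts, and its log2 ratio was -0.007 (-0.04 to 0.03). GADD45A, a stress response gene, had 4348 and 4519 counts, and its log2 ratio was -0.06 (-0.123 to -0.002). It was -0.04 with the GC trend removed. Next in FPKM, MYOF was at -0.004 (-0.035 to 0.027), ASAP1 at 0.107 (0.072 to 0.143) and CRIM1 at 0.175 (0.132 to 0.218). NT5E, AXL, GADD45A, MYOF, ASAP1 and CRIM1 were picked after their values were seen. IGFBP3, which binds insulin-like growth factors, was lowest of the list at 394 and 516 counts, or a log2 ratio of -0.40 (-0.59 to -0.20), and was picked in the same way.

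CTGF, CYR61 and ANKRD1 can also be switched on by MRTF and SRF, a transcription factor pair that senses actin, so targets of that pair were set beside them. Of the 10 genes kept out of 12, 7 lay above 0 and 3 below, with a median log2 ratio of 0.15 and none past 1.5-fold, while 7144 of all 14130 genes kept lay above 0. Without the filter on low counts, which left out ACTA2 and CNN1, the median was 0.07. With the GC trend removed it was 0.19, and 8 of the 10 genes kept lay above 0. Cytoplasmic actin ACTG1 had 95518 counts in the SETDB2 library and 89883 in the control, or a log2 ratio of 0.08 (0.07 to 0.09). The actin crosslinker FLNA went the other way with 274288 and 322334 counts, or a log2 ratio of -0.24 (-0.25 to -0.23). With the GC trend removed ACTG1 was at 0.16 and FLNA at -0.12. The part of this list, and of the fibroblast markers, in the values of CTGF and ANKRD1 was not tested.

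**Figure D5:**
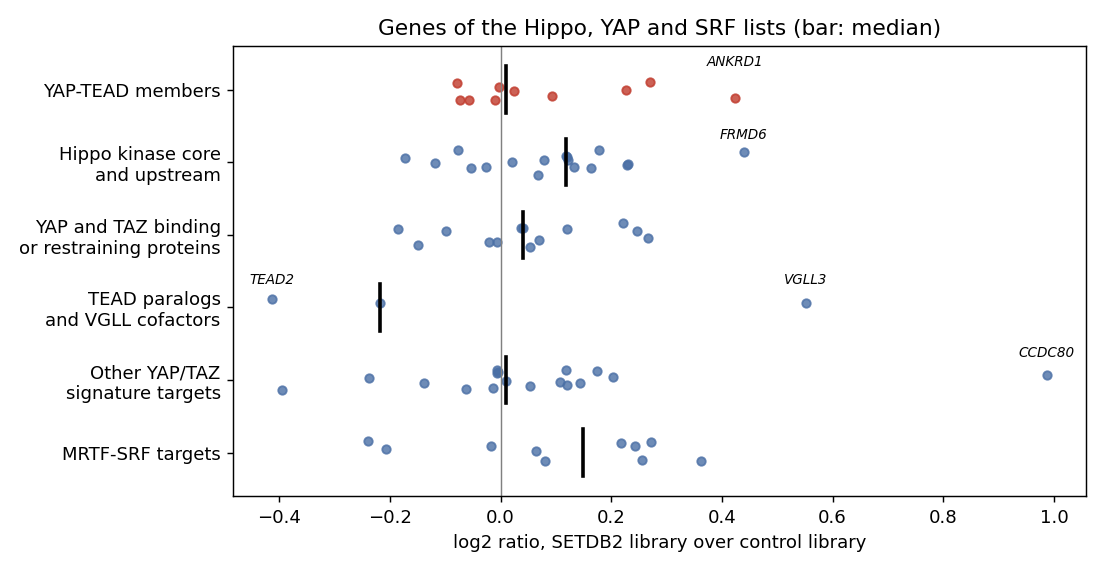
Log2 ratio (SETDB2 over control, 1 library each) for each gene kept, in the YAP-TEAD genes (red) and in the other pathway lists (blue); the black bar is the median of a list and names mark genes over 0.4 from 0. Medians run from -0.22 for the TEAD paralogs and VGLL cofactors (-0.12 with the GC trend removed) to 0.15 for the MRTF-SRF targets. The latter median was 0.07 without the filter and 0.19 with the GC trend removed, and CCDC80 at 0.99 is the farthest point.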

How the data were processed

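Per the labels' protocols, RNA was extracted with TRIzol and a column kit and 4 ug of total RNA went into a standard Illumina library. The authors deposited whole-number counts per gene and FPKM values for each library. The submitters' processing notes name TopHat2 2.0.9, Bowtie2 2.0.6, Cuffdiff 2.1.1 and Cufflinks 2.1.1 without a role. Read length, counting program and strand setting were not given in the sources used here. In the deposited tables an FPKM was the count divided by the listed gene length and a constant per library, so it holds no further measurement. All 10 genes had the same position and name in GENCODE 29 (GRCh38).

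Counts were scaled with TMM (edgeR 4.0.16, R 4.3.3). Log2 ratios used a prior count of 0.5, and 95% intervals were exact Clopper-Pearson intervals of the ratio of 2 counts (scipy 1.17.1). They cover counting error only, since each group held 1 library. PCR copies are not independent molecules, so even that error may be larger than shown. No test was run: neither group had a replicate. Calls were by size, at 2-fold or 1.5-fold with an interval that leaves out equality, among genes with a mean of at least 1 CPM. This filter does not favour uneven genes. The GC trend was a lowess curve over genes with at least 500 counts. The calculation was tested on simulated counts that held counting error only, which cannot address variation between cultures. DESeq2 1.42.0 gave size factors of 1 for both libraries, so that alternative is the ratio of unscaled counts. At least 90.9% of the 75-base pieces of each of the 10 genes were found in no other gene.

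The 10 genes and the lists were chosen with earlier results of these data known. Besides the 10, the text names up to 4 genes past 1.5-fold in each direction of a list, or the 2 of highest FPKM where none passed; other genes are marked where they were picked after their values were seen, or are named for their role in a family.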

Additional observations from a re-analysis of the deposited data

How the results depend on the processing

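Over all alternatives run, none of the 10 YAP-TEAD genes passed 2-fold or 1.5-fold in either direction. ANKRD1 kept a log2 ratio between 0.36 and 0.43, TEAD1 between 0.19 and 0.28 and CTGF between 0.21 and 0.25, whichever scaling, prior count or GC correction was used. AJUBA ran from -0.03 to 0.02 and TEAD4 from -0.02 to 0.10, so their direction is not fixed. Removing the GC trend moved 3 of the 10 genes beyond their counting interval: WWTR1 to 0.005, TEAD1 to 0.19 and AMOTL2 to -0.01. Shares of YAP1, WWTR1 and the TEAD paralogs depend on whether FPKM or counts are used, because the genes differ in length. Counts over all genes depended on the filter: against 92 higher and 163 lower by the 2-fold rule, there were 359 and 626 at 1.5-fold, 866 and 1056 with no filter and 32 and 47 with a summed count of at least 200. With a pseudocount of 0.1 on the deposited FPKM they were 53 and 95. A summed count of at least 50 with 1 CPM in 1 library gave 155 higher. Among the lists, no filter brought in 1 restraining gene, AMOT, and 2 MRTF-SRF targets, ACTA2 and CNN1, and 1.5-fold brought in 1 signature gene, CCDC80. The MRTF-SRF median of 0.15 became 0.07 without a filter and 0.19 with the GC trend removed. The TEAD and VGLL median of -0.22 became -0.12 with the GC trend removed. No paired analysis was possible because each group held a single library. The scaling alternatives shifted all ratios by at most 0.014 (log2). At these depths the counting intervals of the 10 genes were narrow, and variation between cultures was not measured.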

Other observations

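The genes of the MRTF-SRF list that fell below the filter were both lower in the SETDB2 library, and those kept lay on either side of 0. ACTA2, smooth muscle actin, had 10 counts in the SETDB2 library and 32 in the control, or a log2 ratio of -1.64 (-2.87 to -0.63), and CNN1, a calponin, had 8 and 35 counts, or a log2 ratio of -2.07 (-3.455 to -1.002). TAGLN, another smooth muscle gene, had 368 and 285 counts, or a log2 ratio of 0.36 (0.14 to 0.59), and the calponin CNN2 5267 and 4431 counts, or a log2 ratio of 0.24 (0.18 to 0.30). SRF itself had 2944 and 3383 counts, or a log2 ratio of -0.21 (-0.28 to -0.14). These genes were picked after their values were seen.

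Upstream of the LATS kinases, SAV1, the scaffold of STK3 and STK4, had 1256 counts in the SETDB2 library and 1065 in the control, or a log2 ratio of 0.23 (0.11 to 0.35), and LATS1 1820 and 1601 counts, or a log2 ratio of 0.18 (0.08 to 0.28), beside the LATS2 ratio of -0.07. WWC1, which encodes the scaffold KIBRA, had 1626 and 1825 counts, or a log2 ratio of -0.17 (-0.27 to -0.08). LIMD1, a relative of AJUBA, had 2184 and 2472 counts, or a log2 ratio of -0.19 (-0.27 to -0.10). With the GC trend removed these 4 genes stood at 0.17, 0.08, -0.13 and -0.19. The interval of LATS1 then took in equality, and those of the others still left it out. The 4 genes were picked after their values were seen.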
